A study of Mus musculus with 6 samples.

Results

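Serpins are a family of protease inhibitors, and 34 of the 49671 genes counted in these mouse livers were serpins with enough reads to describe. A gene was taken when its symbol was Serpin followed by a clade letter from a to i, a number and at most 1 further letter, and when it had at least 10 counts in at least 3 of the 6 mice. Of 63 serpin symbols in the table, 34 met this rule, with 20 in clade a, 8 in clades b, e and h, and 6 in clades c, d, f, g and i. All 34 also passed the filter on low counts and were tested. The members nearest to the limit were Serpina9, with 105 counts over the 6 mice and at least 10 in 3 of them, and, just outside, Serpinb9e, with 71 counts and at least 10 in 2 mice.

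The study asked what mitochondrial serine hydroxymethyltransferase (SHMT2) does in the fatty liver. RNA was taken from the livers of 6 male C57BL/6J mice kept from 4 weeks of age, for 18 weeks, on the AMLN diet with much fat, fructose and cholesterol added. The 3 control mice, labelled WT, were SHMT2 fl/fl, with loxP sites around exons 3 to 12 and no Cre. The 3 mice labelled KO were SHMT2 HKO, in which an Albumin-Cre transgene deletes these exons in hepatocytes, so that other liver cells keep the gene. Each library came from 1 liver, and no chow-fed mice were analysed here.

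The libraries held 23090837 to 34089722 gene counts. Levels are CPM, counts scaled to a common library size and adjusted by the trimmed mean of M values (TMM), and fold changes are HKO over fl/fl on the log2 scale. Adjusted p-values are from the quasi-likelihood F test of edgeR, two-sided, with Benjamini-Hochberg adjustment over all 16089 genes tested, and a gene was called at an adjusted p under 0.05. Shmt2 was at 94.5, 109 and 93.9 CPM in fl/fl mice 1 to 3 and at 24.9, 28.2 and 19.3 CPM in HKO mice 1 to 3 (log2 fold change -2.04 ± 0.16 (SE), adjusted p = 0.000639).

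A typical serpin presents an exposed reactive-centre loop as bait to a protease. When the protease cuts the loop, the serpin folds the loop into its core and drags the bound enzyme along, so that both are lost. Clade a, c, d, f and g members of the liver are largely plasma proteins secreted by hepatocytes, clade b members stay mostly inside cells, and some members, such as the collagen chaperone Serpinh1 and the hormone carriers Serpina6 and Serpina7, inhibit no protease. In mice the human genes for alpha-1-antitrypsin and alpha-1-antichymotrypsin are each represented by a cluster of paralogs, the Serpina1 and Serpina3 genes.

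The loop is where these paralogs differ most, and the stretches coding for it are shown because they separate genes whose counts behaved differently. In GRCm38, each Serpina1 stretch of 72 bases lies in transcript exon 5 of 5 on the minus strand of chromosome 12. It begins at the conserved hinge of the loop. Capitals mark the 15 positions at which the 5 genes are not all alike. The stretches lie at chr12:103853765-103853836 for Serpina1a, chr12:103728332-103728403 for Serpina1b, chr12:103895102-103895173 for Serpina1c, chr12:103763770-103763841 for Serpina1d and chr12:103947108-103947179 for Serpina1e.
Serpina1a: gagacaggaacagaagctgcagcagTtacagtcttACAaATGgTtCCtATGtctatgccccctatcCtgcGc
Serpina1b: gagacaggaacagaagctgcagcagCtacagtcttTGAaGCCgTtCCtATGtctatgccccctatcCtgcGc
Serpina1c: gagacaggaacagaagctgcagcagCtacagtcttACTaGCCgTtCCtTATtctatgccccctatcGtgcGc
Serpina1d: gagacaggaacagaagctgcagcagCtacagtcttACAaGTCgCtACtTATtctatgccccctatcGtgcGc
Serpina1e: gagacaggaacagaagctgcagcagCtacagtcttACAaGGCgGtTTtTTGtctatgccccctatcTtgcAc

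Over their whole coding sequences the 10 pairs of Serpina1 genes were 96.3% to 98.5% identical, and in this stretch they differed at 4 to 10 of 72 bases. The Serpina3 paralogs were further apart, at 81.5% to 92.0% identity over the 15 pairs without Serpina3g and 81.2% to 87.4% over the 6 pairs with it, which could be aligned over 642 to 744 bases only, and over all 21 pairs they had 16 to 35 differences in the loop stretch. The stretches of the Serpina3 genes most abundant or called here are in exon 5 of 5 on the plus strand, at chr12:104345263-104345334 for Serpina3k, chr12:104393763-104393834 for Serpina3m and chr12:104413442-104413513 for Serpina3n. Capitals mark the bases that differ from Serpina3k, 16 in Serpina3m and 27 in Serpina3n.
Serpina3k: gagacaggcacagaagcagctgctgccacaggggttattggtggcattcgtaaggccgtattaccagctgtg
Serpina3m: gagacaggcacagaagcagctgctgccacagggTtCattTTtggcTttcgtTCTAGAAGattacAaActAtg
Serpina3n: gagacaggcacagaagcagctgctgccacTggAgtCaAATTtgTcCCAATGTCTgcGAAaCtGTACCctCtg

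The authors counted reads with a unique gene hit, so likeness between paralogs bears on how firmly each gene is measured. Of all windows of 150 bases in the transcript, the share also found in another gene's transcript was 50.5% for Serpina1a, 16.4% for Serpina1b, 59.7% for Serpina1c, 23.3% for Serpina1d and 7.57% for Serpina1e. It was 0.262% for Serpina3k, 0.331% for Serpina3m and 0 for Serpina3n and Serpina12. Single Serpina1 genes other than Serpina1e, and their calls, are therefore to be read as uncertain, and their sum is given beside them. Reads that fit several paralogs alike are in no gene's count, so the sum does not recover them. Outside these families, Serpinc1 shared 57.9% of its windows with the overlapping gene Zbtb37, Serpina11 shared 40.1% with Gm28577, and Serpinb6a shared 5.98% with 1110046J04Rik. Over the union of exons, overlap with other genes on either strand was larger for Serpinb6a, at 29.3% with 1110046J04Rik, Nqo2 and Ripk1. For Serpina1c it was 31.5%, with B430119L08Rik.

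Members of clade a were higher in HKO livers where they were called, and those of clades b, e and h were lower. Of all 34 members, 7 rose (20.6%, where 12.5% of all genes tested were called higher) and 5 fell (14.7%, where 16.5% of all genes tested were called lower). In clade a, 5 of 20 rose and 0 fell, with a median log2 fold change of 0.84. In clades b, e and h, 0 of 8 rose and 5 fell, with a median of -0.91. Both counts of 0 were also 0 at an unadjusted p under 0.05 with edgeR and at an adjusted p under 0.05 with DESeq2 and limma-voom. Of the 6 members in the remaining clades, 2 rose, with a median of 0.40, and the median of all genes tested was 0.03.

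The groups of mice did not overlap in 16 members. HKO mice were all above fl/fl mice in 10 members, 8 of them in clade a, where 21.9% of all genes tested showed this order. They were all below in 6 members, 5 of them in clades b, e and h and the other Serpina3i, where 25.0% of all genes tested showed this order.

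**Figure D1:**
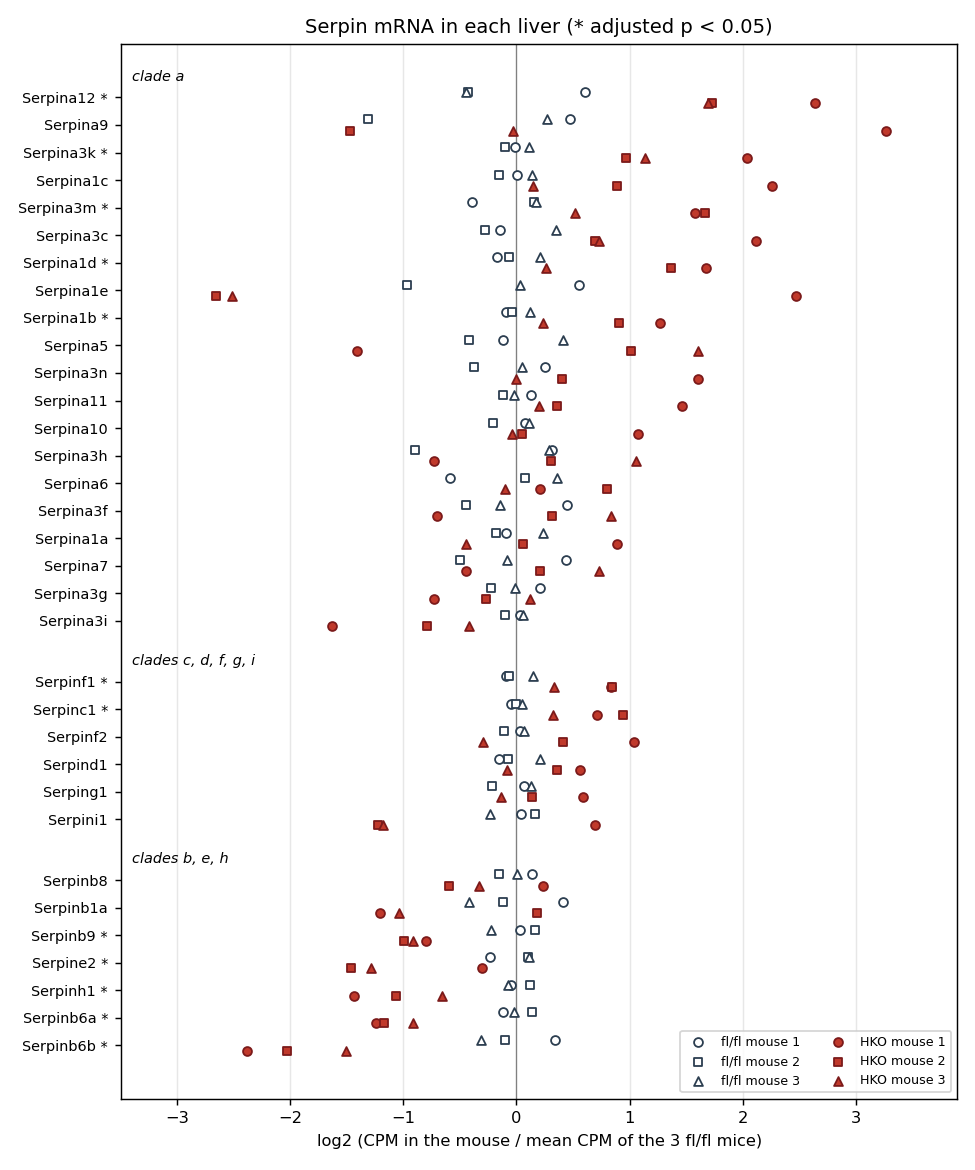
Level of each of 33 serpins in each mouse, as the log2 ratio of its CPM to the mean CPM of the 3 fl/fl mice, with members grouped by clade and ordered by fold change. Open symbols are fl/fl mice, filled symbols HKO mice, the shape gives the mouse number, and an asterisk marks an adjusted p under 0.05. The 7 called members to the right are in clades a, c and f, the 5 to the left in clades b, e and h, and Serpina1e has 1 HKO mouse far to the right and 2 far to the left.

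Per kb of exon, with exons taken as their union over transcripts, the liver serpins spanned several orders of magnitude, and clade a held the top. In fl/fl livers Serpina3k led with 1237 CPM per kb of exon, followed by Serpina1b with 1135, Serpina1c with 850, Serpina1d with 581, Serpina1a with 461 and Serpina1e with 442. Without division by length, Serpina1b had the higher mean, 2740.3 CPM against 2543.5 CPM for Serpina3k. Serpinc1 of clade c then lay next, at 1423.2 CPM, above Serpina1c at 1156.2 CPM. Per kb it was at 166.5, over 8546 bases of exon of which 34.4% overlap Zbtb37. Reads not unique to a Serpina1 gene were not counted, so the order of these genes is uncertain. The members of clades b, e and h were between 1.17 and 54.8 CPM per kb, Serpinh1 being the highest of them. Together the 34 serpins took 1.59%, 1.40% and 1.62% of gene counts in fl/fl mice 1 to 3 and 3.13%, 1.77% and 1.63% in HKO mice 1 to 3. HKO mouse 1 held the highest share, while HKO mouse 3 was close to the highest fl/fl mouse.

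The 5 Serpina1 genes are the mouse paralogs of the human gene for alpha-1-antitrypsin, the plasma inhibitor of neutrophil elastase. Their loop stretches differ, and which proteases each paralog inhibits was not tested. Summed over the paralogs, they were at 6289, 5590 and 6918 CPM in fl/fl mice 1 to 3 and at 20262, 10351 and 6209 CPM in HKO mice 1 to 3. HKO mice 1 and 2 were above all fl/fl mice and HKO mouse 3 was among them. Serpina1b, the most abundant paralog, was at 2571, 2668 and 2982 CPM in fl/fl mice and at 6605, 5132 and 3218 CPM in HKO mice (log2 fold change 0.86 ± 0.27, adjusted p = 0.0440). Serpina1d stood at 719, 773 and 937 CPM against 2589, 2085 and 968 CPM (1.22 ± 0.34, adjusted p = 0.0285). In both genes the groups did not overlap, and HKO mouse 3 lay close to the highest fl/fl mouse. Serpina1c, at 1157, 1037 and 1275 CPM against 5540, 2144 and 1280 CPM, missed the threshold (1.37 ± 0.48, adjusted p = 0.0657), as did Serpina1a (0.27 ± 0.32, adjusted p = 0.563). With 1 mouse left out, the calls of Serpina1b and Serpina1d were lost without any of the 3 fl/fl mice or HKO mouse 2, that of Serpina1b also without HKO mouse 1, and Serpina1c passed without HKO mouse 3.

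Serpina1e went 2 ways among the HKO livers. It was at 1049, 366 and 730 CPM in fl/fl mice 1 to 3, at 3966 CPM in HKO mouse 1, and at 114 and 125 CPM in HKO mice 2 and 3. HKO mouse 1 was above every fl/fl mouse and the other HKO mice were below every one, and the fitted change was 0.97 ± 1.34 (adjusted p = 0.626). Without HKO mouse 1 it was -2.58 (adjusted p = 0.00404), and over all alternatives it ran from -2.58 to 1.52. As a share of all Serpina1 counts, which no scaling of libraries can change, Serpina1e made up 16.7%, 6.55% and 10.5% in fl/fl mice and 19.6%, 1.10% and 2.01% in HKO mice. Serpina1a made up 12.6%, 13.3% and 14.4% in fl/fl mice and 7.71%, 8.47% and 9.96% in HKO mice, lower in all 3.

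**Figure D2:**
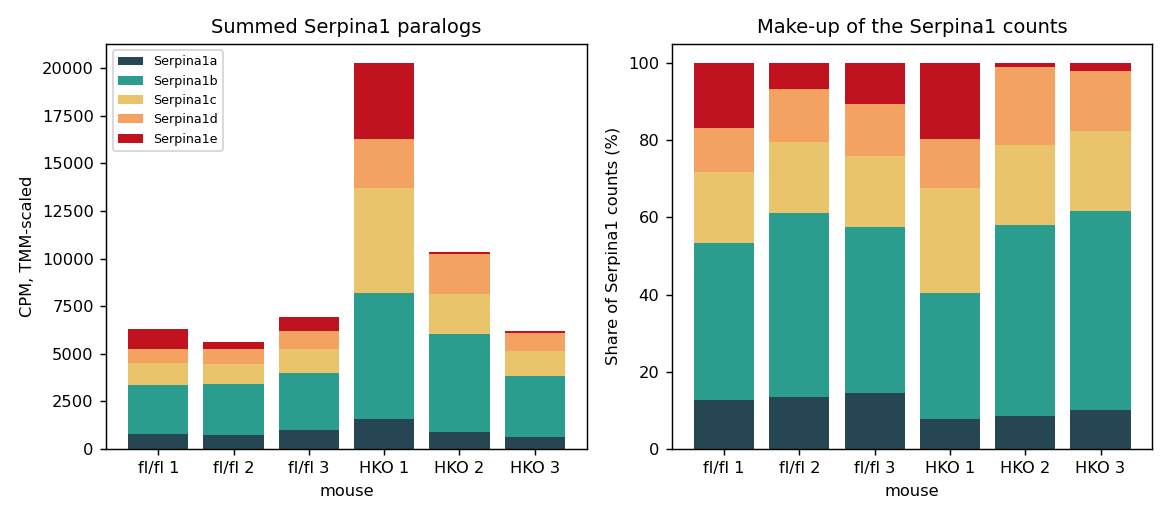
Serpina1 paralogs in each liver, on the left as stacked TMM-scaled CPM and on the right as a percentage of all Serpina1 counts of that mouse. The sum is 20262 CPM in HKO mouse 1, 10351 in HKO mouse 2 and 6209 in HKO mouse 3, and the Serpina1e share falls to 1.10% and 2.01% in HKO mice 2 and 3 while it is 19.6% in HKO mouse 1.

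Serpina1e parted from its paralogs in counts, so a short matching stretch of each Serpina1 promoter is shown. Each stretch was cut around letters that all of these genes share, and the rest of the promoters was not compared. In RefSeq promoters of GRCm38.p6, 61 bases on the minus strand were taken around the letters GTTAAT, a half-site bound by HNF1 factors of the hepatocyte, which are given in capitals. They lie at chr12:103863625-103863685 for Serpina1a, chr12:103738200-103738260 for Serpina1b, chr12:103904962-103905022 for Serpina1c, chr12:103773634-103773694 for Serpina1d and chr12:103956960-103957020 for Serpina1e.
Serpina1a: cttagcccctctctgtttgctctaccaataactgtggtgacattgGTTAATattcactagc
Serpina1b: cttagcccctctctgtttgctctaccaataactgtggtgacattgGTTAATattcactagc
Serpina1c: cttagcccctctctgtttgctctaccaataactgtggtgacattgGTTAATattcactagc
Serpina1d: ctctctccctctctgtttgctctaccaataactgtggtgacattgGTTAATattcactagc
Serpina1e: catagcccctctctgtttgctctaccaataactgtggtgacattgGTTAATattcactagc

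The Serpina1e window differed from those of Serpina1a, Serpina1b and Serpina1c at 1 base each and from that of Serpina1d at 5 bases. Relative to the RefSeq start, the window ended at -62 in Serpina1e and at -5, -10, -11 and 0 in Serpina1a to Serpina1d. These distances depend on the start used. The GENCODE gene models begin elsewhere, at bases 103863562, 103830373, 103904887, 103773592 and 103958975 for Serpina1a to Serpina1e. Whether promoter sequence had a part in the Serpina1e counts was not tested. The letters GTTAAT, on either strand, were in 7.10% of 32851 RefSeq promoters of 250 bases before to 50 bases after a start. Of the members, 25 had an entry there with 29 promoters, and 9 of the 29, from Serpina1a to Serpina1e, Serpina3c, Serpina7 and Serpinb8, held them. The palindrome bound by STAT factors, TTC and GAA with any 3 bases between, was in 8.30% of all promoters and in 7 of the 29, from Serpina11, Serpina3f, Serpina3g, Serpina3i and Serpinb6a. Serpina10, Serpina3h, Serpina3k, Serpina3m, Serpina6, Serpina9, Serpinb1a and Serping1 were among those with no entry.

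Among the 8 Serpina3 genes, the mouse relatives of alpha-1-antichymotrypsin, Serpina3k and Serpina3m rose. Serpina3k was at 2515, 2370 and 2746 CPM in fl/fl mice 1 to 3 and at 10434, 4970 and 5590 CPM in HKO mice 1 to 3 (1.46 ± 0.30, adjusted p = 0.00941). Its lowest HKO liver was above its highest fl/fl liver by more than the whole range of the fl/fl livers. Serpina3m was at 64.8, 95.0 and 96.1 CPM against 255, 271 and 122 CPM (1.34 ± 0.31, adjusted p = 0.0148), again with no overlap, and lost its call without fl/fl mouse 1. Serpina3k gave 81.6% to 84.9% of Serpina3 counts in fl/fl mice and 85.8% to 91.1% in HKO mice.

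The other 6 Serpina3 genes did not pass the test. Serpina3n, an acute phase gene, was at 473, 306 and 412 CPM in fl/fl mice and at 1205, 526 and 396 CPM in HKO mice (0.84 ± 0.40, adjusted p = 0.152), and only HKO mouse 1 stood far from the rest. Serpina3c, with under 3 CPM in every mouse, had a fold change of 1.34 ± 0.48 (adjusted p = 0.0682), and its groups did not overlap; it passed without HKO mouse 3 and with DESeq2. Serpina3f, Serpina3g, Serpina3h and Serpina3i lay between -0.85 and 0.37, Serpina3h being annotated as a pseudogene. In these 4 genes HKO mouse 1 was the lowest HKO mouse, the reverse of its place in Serpina3k, Serpina3c and Serpina3n.

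Serpina12 encodes vaspin, an inhibitor first described as a product of visceral fat, and had the largest fitted change of the 34 members. It was at 46.3, 22.6 and 22.4 CPM in fl/fl mice 1 to 3 and at 190, 101 and 98.2 CPM in HKO mice 1 to 3 (2.09 ± 0.37, adjusted p = 0.00663). Every HKO liver held more than the highest fl/fl liver, and leaving out HKO mouse 1 gave 1.71 (adjusted p = 0.00578). Of the hormone carriers, corticosteroid-binding globulin (Serpina6) had a change of 0.35 ± 0.29 (adjusted p = 0.406) and thyroxine-binding globulin (Serpina7), the clade a member on chromosome X, one of 0.24 ± 0.32 (adjusted p = 0.614), both with overlapping groups. Serpina11 missed the threshold at 0.79 ± 0.32 (adjusted p = 0.0961), although HKO livers were all above fl/fl livers, and passed without HKO mouse 3 and with DESeq2. Serpina9 and Serpina5, the protein C inhibitor, were under 3 CPM in every mouse and had adjusted p-values of 0.228 and 0.367. Serpina5 passed without HKO mouse 1, at 1.33 (adjusted p = 0.0412).

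HKO mouse 1 was the most extreme liver in clade a. It had the highest level of the 6 mice in 12 of the 20 clade a members and the lowest in 4, while HKO mouse 2 was highest in 2 and HKO mouse 3 in 4. Of 15 acute phase genes, 13 were also highest in HKO mouse 1, the exceptions being Lcn2, highest in fl/fl mouse 1, and Orm3, highest in HKO mouse 2. Saa1 was at 3398 CPM in HKO mouse 1, at 260 and 174 CPM in HKO mice 2 and 3, and at 98.4 to 383 CPM in fl/fl mice. Without HKO mouse 1, the clade a median was 0.57, and 5 clade a members rose and 1, Serpina1e, fell. Whether this liver was in an acute phase was not tested.

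The inhibitors of clotting and fibrinolysis from clades c, d and f, and Serpina10, were raised in part. Serpinc1, or antithrombin, was at 1375, 1423 and 1472 CPM in fl/fl mice 1 to 3 and at 2325, 2726 and 1784 CPM in HKO mice 1 to 3 (0.68 ± 0.20, adjusted p = 0.0342). The groups did not overlap, and the fl/fl mice lay close together. Heparin cofactor II (Serpind1), which inhibits thrombin as Serpinc1 does, was at 241, 254 and 310 CPM against 397, 344 and 254 CPM (0.30 ± 0.19, adjusted p = 0.276). Serpina10, which with protein Z blocks factor Xa, was at 229, 188 and 235 CPM against 457, 225 and 211 CPM (0.45 ± 0.29, adjusted p = 0.282). Serpinf2, the plasmin inhibitor alpha-2-antiplasmin, had a change of 0.49 ± 0.30 (adjusted p = 0.260). In these 3 genes HKO mouse 3 was within or below the fl/fl range, and Serpinf2 passed without it. The call of Serpinc1 was lost without any of the fl/fl mice or HKO mouse 2.

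Serpinf1, or pigment epithelium-derived factor, which inhibits no protease, was at 362, 368 and 427 CPM in fl/fl mice and at 689, 692 and 485 CPM in HKO mice (0.69 ± 0.18, adjusted p = 0.0252), with no overlap, and its call was lost without the same mice as that of Serpinc1. Serping1, the C1 inhibitor of complement and of the contact system, was at 578, 475 and 601 CPM against 827, 606 and 503 CPM (0.23 ± 0.21, adjusted p = 0.458), and its groups overlapped. Serpini1, or neuroserpin, was at 1.83, 1.99 and 1.51 CPM against 2.88, 0.759 and 0.787 CPM (-0.26 ± 0.52, adjusted p = 0.737). As in Serpina1e, HKO mouse 1 was the highest and the other HKO mice the lowest of the 6, and without HKO mouse 1 the change was -1.19 (adjusted p = 0.0251).

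Serpinh1, known as HSP47, is a chaperone of the endoplasmic reticulum that holds procollagen, and it fell. It was at 129, 145 and 127 CPM in fl/fl mice 1 to 3 and at 49.5, 63.8 and 84.7 CPM in HKO mice 1 to 3 (-1.02 ± 0.19, adjusted p = 0.00681). Serpine2, or protease nexin-1, an inhibitor of thrombin and plasminogen activators at cell surfaces, was at 35.0, 44.2 and 44.4 CPM against 33.4, 15.0 and 16.9 CPM (-0.92 ± 0.29, adjusted p = 0.0473). HKO mouse 1 was just under the lowest fl/fl mouse, and the call was lost without any of the 3 fl/fl mice, HKO mouse 2 or HKO mouse 3.

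The clade b members are mostly intracellular inhibitors of leukocytes and epithelia, and 3 of the 5 measured here fell. Serpinb6b was at 28.2, 20.7 and 17.9 CPM in fl/fl mice and at 4.28, 5.47 and 7.83 CPM in HKO mice (-1.92 ± 0.26, adjusted p = 0.00211). Serpinb6a, which can inhibit cathepsin G, was at 43.1, 51.6 and 46.1 CPM against 19.9, 20.9 and 24.9 CPM (-1.10 ± 0.13, adjusted p = 0.00148). Serpinb9, the inhibitor of granzyme B, was at 21.7, 23.8 and 18.1 CPM against 12.2, 10.6 and 11.2 CPM (-0.90 ± 0.15, adjusted p = 0.00392). In each of these genes the HKO livers were all below the fl/fl livers, and the call held in all 16 alternatives, as it did for Serpinh1.

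Serpinb1a, an inhibitor of neutrophil proteases, was at 4.94, 3.42 and 2.76 CPM against 1.61, 4.20 and 1.81 CPM (-0.56 ± 0.41, adjusted p = 0.343). Serpinb8, known to inhibit furin, had a change of -0.19 ± 0.25 (adjusted p = 0.608), and both genes overlapped between groups. The called clade b members all lie on chromosome 13 of GRCm38, where 4 of the 5 members span 1161 kb from base 32842092 to 34002794, and Serpinb8 is on chromosome 1. In clade a, 19 of 20 members lie within 799.5 kb of chromosome 12, from base 103614786 to 104414329, and this interval held members that rose, such as Serpina3k, beside members that did not pass, such as Serpina3n.

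Because scaling shifts all genes alike, the clades were also compared within each mouse. The median over clade a of the log2 ratio to the fl/fl mean, less the same median over clades b, e and h, was -0.03, -0.23 and 0.28 in fl/fl mice 1 to 3, which lie near 0 by construction. It was 2.35, 1.49 and 1.13 in HKO mice 1 to 3, each above every fl/fl mouse. The log2 ratio of Serpinh1 to Serpinc1 counts was -3.41, -3.29 and -3.53 in fl/fl mice and -5.55, -5.42 and -4.40 in HKO mice. The ratios of Serpinb6a and Serpine2 to Serpinc1 also did not overlap between the groups, with means that differed by -1.76 and -1.66, while that of Serpina3k overlapped, with a mean difference of 0.72. Serpinh1, Serpinb6a and Serpine2 were called lower and Serpinc1 higher in these same data. Their ratios could therefore hardly overlap, and they only describe the size of the difference.

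**Figure D3:**
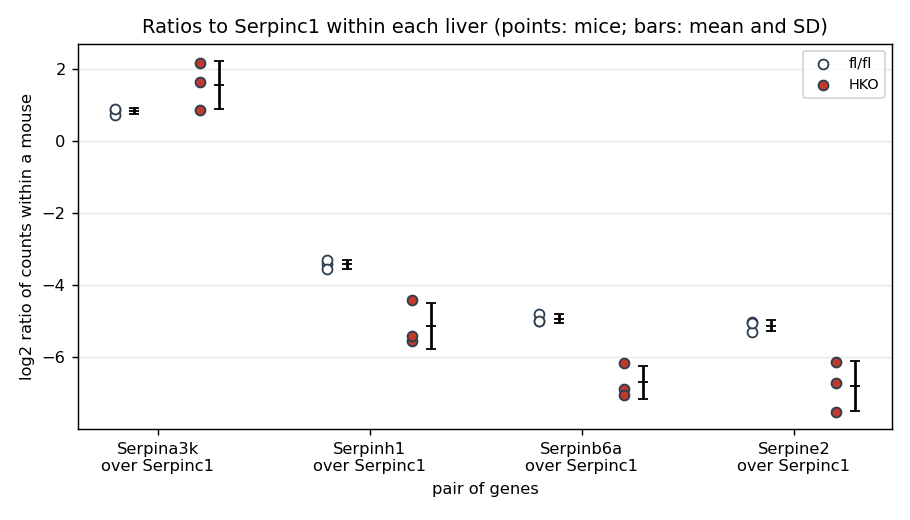
Log2 ratio of the counts of 4 serpins to those of Serpinc1 in the same liver, with open points for the 3 fl/fl mice, filled points for the 3 HKO mice, and bars for the mean and SD of each group. Serpinh1, Serpinb6a and Serpine2 lie lower in all HKO mice than in any fl/fl mouse, and Serpina3k overlaps. The genes shown and Serpinc1 were picked from the members called in these same data.

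The scaling decided how far the plasma inhibitors appeared raised. The TMM factors were 1.21, 1.15 and 1.13 in fl/fl mice 1 to 3 and 0.812, 0.802 and 0.984 in HKO mice 1 to 3. ERCC RNAs took 1.47%, 1.84% and 1.42% of counts in fl/fl mice and 2.75%, 2.31% and 1.35% in HKO mice. The ERCC scale thus varied between mice of 1 genotype. With library size in place of TMM the clade a median was 0.39 and that of clades b, e and h -1.34, while the median of all genes was -0.40. With scaling to the ERCC spike-in RNAs these medians were -0.13, -1.60 and -0.69, 0 members rose (1 at an unadjusted p under 0.05) and 5 fell, and Serpina1b, Serpinc1 and Serpinf1 took fold changes of -0.02, -0.12 and -0.12. Serpina12, Serpina3k and Serpina3m kept fold changes above 0, at 1.21, 0.63 and 0.45, but none passed the threshold there. Under TMM and each of the 4 other scalings the median of clade a lay above the median of all genes and clades b, e and h below it.

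**Figure D4:**
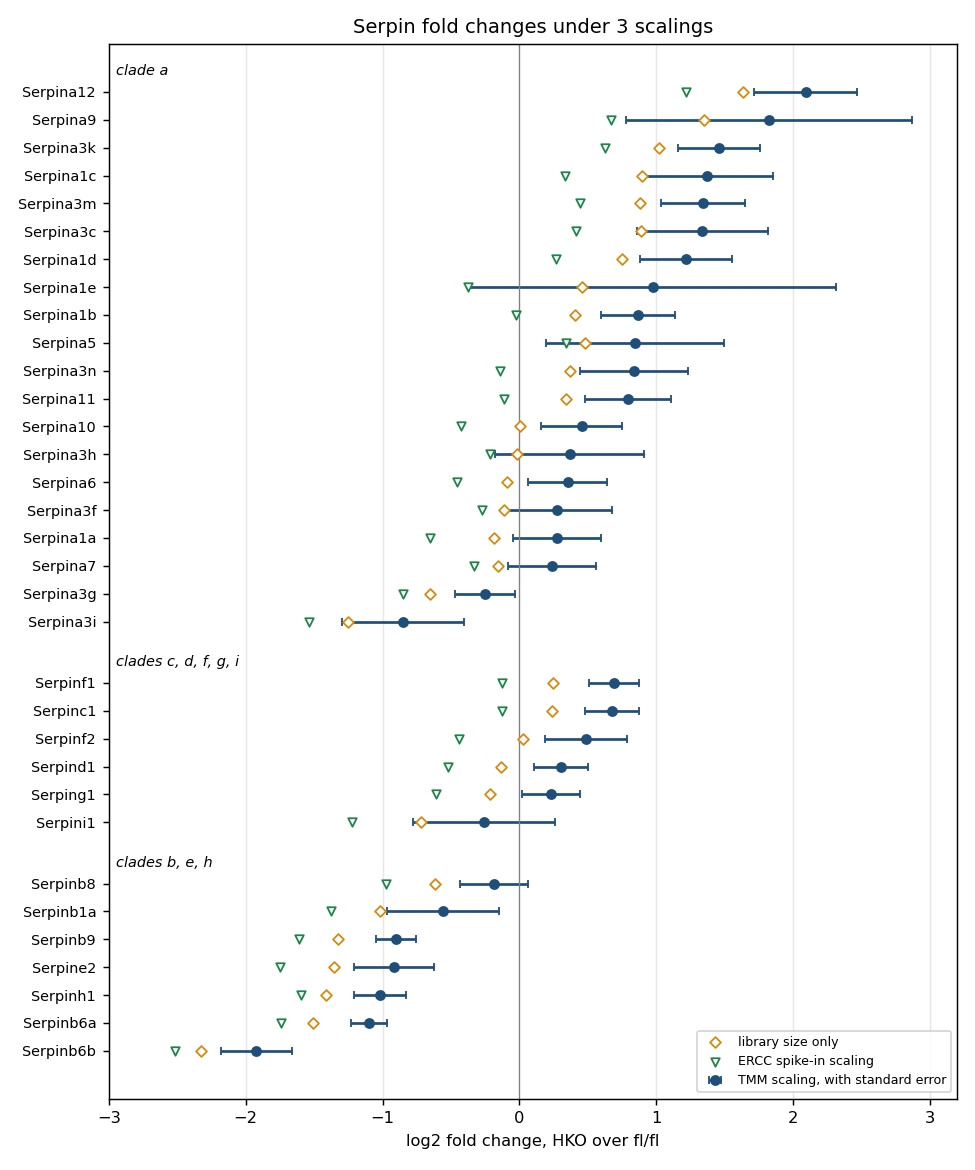
Log2 fold change, HKO over fl/fl, of 33 serpins by clade, with TMM scaling (filled, with standard error), library size only (diamonds) and ERCC spike-in scaling (triangles). All 7 members shown of clades b, e and h are below 0 under the 3 scalings, and 18, 13 and 8 of the 20 clade a members are above 0 under TMM, library size and ERCC scaling.

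The proteases and cofactors that serpins meet were read from 10 lists with 98 genes, 86 of them tested, of which 24 rose and 20 fell. Over all genes tested, 12.5% were called higher and 16.5% lower. The counts of every list here and below stand beside these shares, and 1 call in a short list says little. Under ERCC scaling none of the 24 passed the threshold upward in edgeR. Of 9 coagulation factors, a list that holds proteases inhibited by Serpinc1 and also protein C (Proc) and protein Z (Proz), the cofactor of Serpina10, 8 rose, with a median of 0.76 and changes of 0.77 ± 0.12 (adjusted p = 0.00309) in factor IX (F9) and 0.68 ± 0.18 (adjusted p = 0.0243) in prothrombin (F2). F2 became -0.105 under ERCC scaling. Of the inhibitors outside the serpin family, most of them plasma proteins, 3 of 16 tested rose, among them histidine-rich glycoprotein (Hrg, 0.81 ± 0.20, adjusted p = 0.0201), and 1, Spint1, a membrane-bound inhibitor of epithelia, fell (-2.79 ± 0.33, adjusted p = 0.00148). The 6 cholangiocyte markers fell too (Krt19 -2.97, Epcam -3.12), and their part in the fall of Spint1 was not tested. Masp2 of the lectin pathway, a protease that Serping1 inhibits, rose by 1.17 ± 0.15 (adjusted p = 0.00184), 1 of 3 that rose among 5 tested.

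In the plasminogen system, 3 of 6 genes fell. Tissue plasminogen activator (Plat), a target of Serpine2, was at 18.1, 13.1 and 11.7 CPM in fl/fl mice and at 2.75, 2.13 and 3.30 CPM in HKO mice (-2.38 ± 0.24, adjusted p = 0.00101). Urokinase (Plau) and its receptor (Plaur) changed by -1.25 ± 0.27 and -1.23 ± 0.28 (adjusted p = 0.0119 and 0.0149). Plasminogen itself, made by hepatocytes, was higher in each HKO mouse than in any fl/fl mouse but missed the threshold (0.74 ± 0.26, adjusted p = 0.0634).

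Of the 17 collagen chains and collagen chaperones, the company of Serpinh1, 12 fell and 2 rose, with a median of -1.59. Col4a2 changed by -1.59 ± 0.18 (adjusted p = 0.00125), Col6a2 by -1.92 ± 0.21 (adjusted p = 0.00111) and the collagen chaperone Fkbp10 by -1.80 ± 0.24 (adjusted p = 0.00196). Those that rose were P4hb and Plod1, enzymes of collagen modification, at 0.62 ± 0.16 (adjusted p = 0.0212) and 0.67 ± 0.15 (adjusted p = 0.0131).

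Granzymes and cysteine cathepsins were low or mixed. Granzyme B (Gzmb), the target of Serpinb9, was at 3.01, 2.93 and 1.90 CPM in fl/fl mice and at 1.23, 0.557 and 0.197 CPM in HKO mice (-1.98 ± 0.55, adjusted p = 0.0298), 1 of 3 granzymes tested. Of 10 cysteine cathepsins 3 fell, Ctsk (-2.10 ± 0.21, adjusted p = 0.000943), Ctsw (-2.91 ± 0.36, adjusted p = 0.00161) and Ctss (-1.47 ± 0.21, adjusted p = 0.00261), and 1, Ctso, rose (0.40 ± 0.12, adjusted p = 0.0328). Of 3 neutrophil proteases, which include the elastase that alpha-1-antitrypsin inhibits and are targets of Serpinb1a, 1 was tested and did not pass. Among 15 acute phase genes 5 rose, and of 4 carriers tested, 2 rose.

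Markers of several non-hepatocyte cells moved with the serpins that fell, and in whole liver fewer cells of a type and less RNA per cell cannot be told apart. Of all genes tested, 16.5% were called lower and 12.5% higher. All 6 cholangiocyte markers fell, with summed levels of 955 to 1186 CPM in fl/fl mice and 128 to 245 CPM in HKO mice, and all 6 T and NK cell markers fell, from 17.4 to 22.1 CPM to 3.29 to 4.15 CPM. Of 8 stellate and myofibroblast markers 4 fell (857 to 964 CPM against 251 to 600 CPM), of 8 macrophage markers 3 fell and 1 rose (282 to 423 CPM against 343 to 433 CPM), of 4 B cell markers 1 fell (7.62 to 15.7 CPM against 3.30 to 4.17 CPM), and of 4 tested neutrophil markers 1 fell. Of 6 endothelial markers 2 rose. Of 6 hepatocyte markers 1, Ttr, rose, at an adjusted p of 0.0498 in edgeR and with overlapping groups. The median of the list was 0.48, while Tat went the other way (-0.66, adjusted p = 0.0718). Their summed level was 48554 to 59576 CPM against 59915 to 89595 CPM. Most of this sum was Alb, whose groups overlapped (0.56 ± 0.25, adjusted p = 0.132). None of the 4 pancreatic acinar markers had enough counts to be tested, and they summed to 0.225 to 0.626 CPM against 0.354 to 0.847 CPM. Of these, Cpa1 was at 0 in every mouse, while Cela2a had counts in every mouse. The part of these cell types in the serpin changes was not tested.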

How the data were processed

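Liver RNA from 6 mice, 3 of each genotype, was sequenced as paired reads. The values deposited by the authors are raw counts of unique gene hits, made with Trimmomatic 0.36, STAR 2.5.2b on GRCm38 with the ERCC sequences, and featureCounts of Subread 1.5.2 per the submitters' processing notes and the study's methods. Use of strand is not given in the sources used here, and antisense overlaps cannot be separated. The 92 ERCC rows entered neither library sizes nor tests, and 345 gene IDs without a symbol held 0.0416% of gene counts. Groups and numbers came from the labels.

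Genes were kept by filterByExpr, scaled by TMM and tested with edgeR 4.0.16 (robust quasi-likelihood F test, two-sided, 16089 genes) in R 4.3.3. Alternatives were 4 other scalings, 2 filters, non-robust dispersions, DESeq2 1.42.0, limma-voom (limma 3.58.1, as in the study), the replicate number as a block, leaving out each mouse, and an adjusted p under 0.01. With 3 against 3 mice the smallest exact permutation p is 0.1, which Shmt2 reached. Gene models and shared windows of 150 bases were read from GENCODE M21 transcripts, promoters from RefSeq, and CPM per kb used the union of exons. The code was tested on simulated data.

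Members with an adjusted p under 0.05 or a classical role are named with values, as are up to 4 genes of each list with the smallest adjusted p. The members, lists and tests were chosen with earlier results of these data known. Serpina9, Serpina11, Serpini1, P4hb, Plod1, Saa1 Serpina4-ps1 and the Serpinb9 and granzyme clusters were named after their values were seen. Single values of 1 member are not reported here, and it is counted in the totals of members.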

Additional observations from a re-analysis of the deposited data

Results flagged for a closer look

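Serpina4-ps1, a serpin pseudogene in the clade a cluster whose symbol falls outside the rule, had 473, 333 and 388 counts in fl/fl mice 1 to 3 and 13308, 716 and 5669 counts in HKO mice 1 to 3. Its log2 fold change was 4.59 ± 0.91 (edgeR, adjusted p = 0.0114), larger than that of any of the 34 members, and all HKO mice were above all fl/fl mice.

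Serpinb9b to Serpinb9g, 6 paralogs of Serpinb9 that had too few counts for the rule, summed to 22, 0 and 5 counts in fl/fl mice 1 to 3 and to 157, 0 and 2 counts in HKO mice 1 to 3. The signal was above the controls in HKO mouse 1, and 21 of the 22 counts of fl/fl mouse 1 were in Serpinb9e. The genes Gzmc to Gzmg, 5 granzymes that were not tested, summed to 3, 11 and 6 counts in fl/fl mice and to 339, 0 and 5 counts in HKO mice, again with HKO mouse 1 alone above the controls. No test was made on either sum.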

How the results depend on the processing

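The count of 7 members that rose was 3 with library size in place of TMM, 0 with ERCC scaling, 3 with the replicate block, 2 at an adjusted p under 0.01, and 2 to 11 with 1 mouse left out (11 without HKO mouse 3, 2 without fl/fl mouse 1, and 3 without fl/fl mouse 2, fl/fl mouse 3 or HKO mouse 2). The count of 5 that fell was 4 to 7 over all alternatives. The 24 genes of the lists that rose were 4 without TMM, 0 with ERCC scaling, 13 with the replicate block and 5 to 33 with 1 mouse left out. The clade a median turned to -0.13 with ERCC scaling, and that of clades b, e and h moved to -1.34 without TMM and -1.60 with ERCC scaling. Signs were followed for the members, Shmt2 and up to 4 called genes of each list with the smallest adjusted p. Other called genes, such as Proc and P4hb, were left out. Of the called genes followed, ERCC scaling turned the sign of Serpina1b (-0.022), Serpinc1 (-0.12), Serpinf1 (-0.12), Proz (-0.041), F12 (-0.031), F2 (-0.105), C1s1 (-0.092), Masp1 (-0.235), Ctso (-0.311), Kng2 (-0.12), Hrg (-0.019), Ambp (-0.0701), Rbp4 (-0.0086) and Ttr (-0.055), and library size turned Ctso (-0.024). Of the 22 members not called, 12 also turned sign with ERCC scaling and 7 with library size. Serpina1e ran from -2.58 to 1.52 with 1 mouse left out. The causes were not tested. Same-numbered mice did not deviate together (r = -0.046, 0.013 and -0.077), so the replicate block joins mice that share only a number.

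Over all alternatives, the call was lost in 10 of 16 for Serpina1b, 8 for Serpinc1, 7 each for Serpina1d, Serpine2 and Serpinf1, 2 each for Serpina12 and Serpina3m, and 1 for Serpina3k, and in 0 of 16 for Serpinb6a, Serpinb6b, Serpinb9 and Serpinh1. With 3 mice a genotype, 1 animal decides the borderline calls, and members under 1 CPM rest on few reads.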
